A study of Mus musculus with 15 samples.

Results

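The citric acid cycle and the entry of pyruvate into it were followed through 30 genes in adipocyte precursor cells of mouse pups raised on milk whose n6/n3 ratio of polyunsaturated fatty acids (PUFA) was either high or low. The 30 genes are the rows whose Ensembl gene ID maps to a list of 30 symbols, and all 30 were present in both deposited tables, which share 21792 genes. RNA was sequenced in bulk from subcutaneous adipose tissue of C57Bl/6 wildtype pups that had been cross-fostered, and the cells had been sorted by flow cytometry. The protocols give the milk exposure as 12 days in one place and as 10 days in another. CD24+ cells, named progenitors in the labels, gave 8 libraries, 4 of the high ratio (numbered 1015, 1017, 1018 and 1019) and 4 of the low ratio (108, 114, 119 and 133). CD24- cells, named preadipocytes, gave 7, 3 of the high ratio (1015, 1017 and 1019) and 4 of the low ratio (108, 114, 119 and 133). For the 4 preadipocyte libraries on low-ratio milk the sample characteristics give the low ratio and the source name gives the high one, and the characteristics were used. The labels do not say how many pups went into a library, and the spread behind each p-value is therefore that between libraries, which may be technical in part.

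The cycle oxidises acetyl-CoA in the mitochondrial matrix and hands its electrons to the respiratory chain. Pyruvate crosses the inner membrane through a carrier and becomes acetyl-CoA in the pyruvate dehydrogenase complex, which kinases switch off and phosphatases switch on, while pyruvate carboxylase turns pyruvate into oxaloacetate instead. In fat tissue, citrate exported from mitochondria carries carbon for fatty acid synthesis, and cytosolic enzymes that act on isocitrate and malate take part in supplying the reducing power.

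Values are normalized counts, obtained by inverting the variance stabilizing transformation of the deposited tables. Estimated depth ran from 13.96 to 68.83 M reads (M, mega) per library, with both ends among the preadipocyte libraries on high-ratio milk. Precursor markers were abundant in every library, at a summed normalized count of 136114 to 172678 in progenitors and 112314 to 145035 in preadipocytes, while adipocyte markers summed to at most 202 and 214. Markers of other cell types were counted too. In progenitors those of endothelium summed to 8868 to 13093, of red cells to 1678 to 15694 and of mural cells to 1398 to 3277. In these bulk libraries, fewer cells of a type and less RNA per cell cannot be told apart. Each table was normalized on its own, so levels were not tested between the populations.

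Per kilobase of transcript, Idh2, the mitochondrial NADP-linked isocitrate dehydrogenase, had the highest level of the 30 in both populations, with a mean normalized count per kilobase of 2941 in progenitors and 2640 in preadipocytes. That placed it at the 95.4th and 95.1st percentile of all genes tested. Mdh2, the mitochondrial malate dehydrogenase, followed in progenitors at 1964 per kilobase and Idh1, the cytosolic NADP-linked isocitrate dehydrogenase, followed in preadipocytes at 1913 per kilobase. This order depends on the length used, a median over annotated transcripts, which was 1068.5 bases for Idh2. Without division by length, Ogdh, of the oxoglutarate dehydrogenase complex, had the highest mean count in progenitors, at 5516. Idh1 had the highest in preadipocytes, at 4386. At the low end stood Me3, a mitochondrial NADP-linked malic enzyme, at 14.3 and 10.9 per kilobase, Pdp2, a phosphatase of the pyruvate dehydrogenase complex, at 35.6 and 29.2, and Pcx, pyruvate carboxylase, at 55.6 and 49.8. All 30 genes passed the filter of a mean normalized count of at least 10 in both populations.

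**Figure D1:**
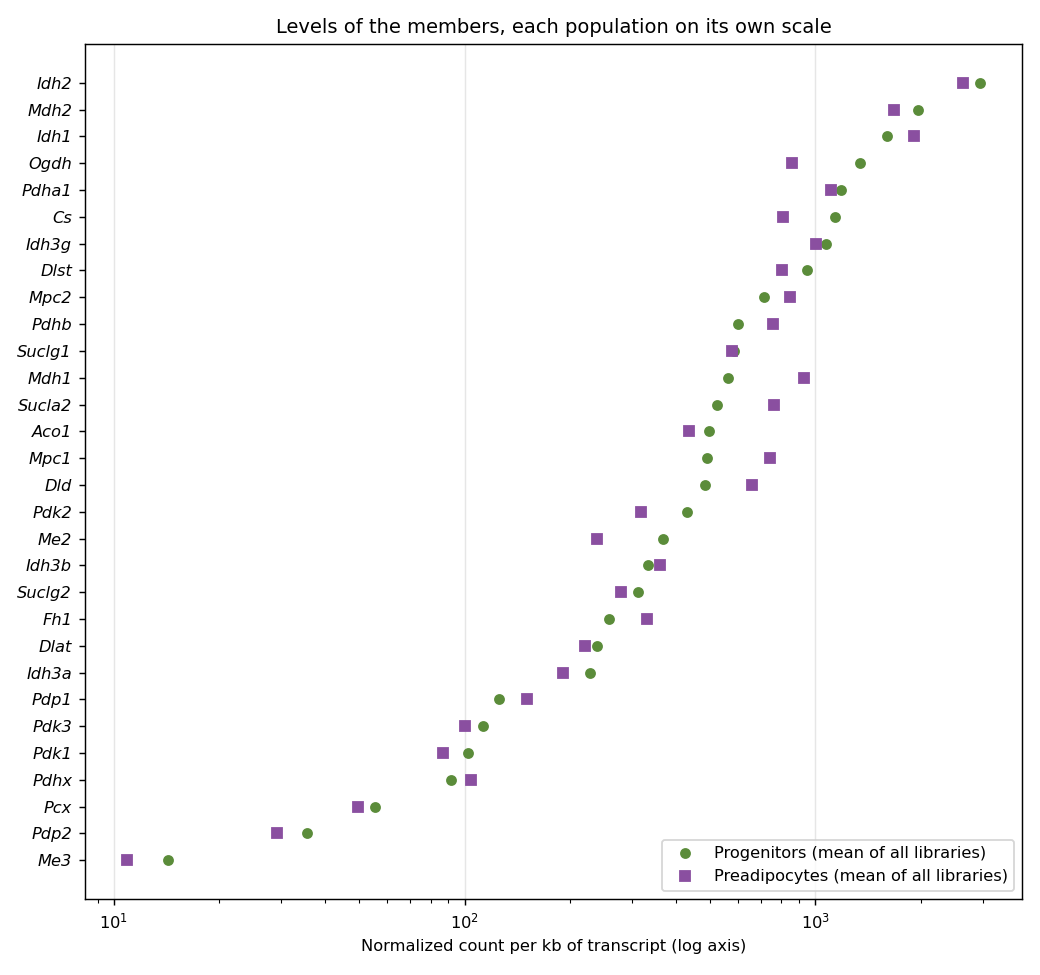
Mean normalized count per kilobase of transcript of the 30 genes on a log axis, with 1 point for progenitors (mean of 8 libraries) and 1 for preadipocytes (mean of 7 libraries), each on the scale of its own table. The genes span from 14.3 to 2941 per kilobase in progenitors and from 10.9 to 2640 in preadipocytes.

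In preadipocytes 4 of the 30 genes fell on low-ratio milk and none rose. They were Mdh1, the cytosolic malate dehydrogenase of the malate-aspartate shuttle, Sucla2, the ADP-forming beta subunit of succinyl-CoA ligase, Mpc1, a subunit of the mitochondrial pyruvate carrier, and Idh1. Of these, Mdh1 and Idh1 encode enzymes of the cytosol and not of the mitochondrial cycle. Over all 15893 genes tested with limma and Benjamini-Hochberg adjustment, 2.88% passed an adjusted p of 0.05, 0.535% as higher and 2.35% as lower. In progenitors none of the 30 passed, and neither did any of the 15973 genes tested (0%).

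Mdh1 (ENSMUSG00000020321, chr11:21556787-21572367 on GRCm38, minus strand) had normalized counts of 2937, 2821 and 2274 in the preadipocyte libraries of the high ratio. Its counts on low-ratio milk were 1425, 1541, 1273 and 1509.9. The groups were well apart: the lowest high-ratio library stood above every low-ratio one. The means were 2678 ± 354 (SD, n = 3) and 1437 ± 120.1 (SD, n = 4), and the log2 fold change, low minus high, was -0.89 ± 0.12 (SE; limma, adjusted p = 0.0230). In progenitors the Mdh1 counts of both milks overlapped, from 1117 to 1291 on high-ratio and from 963 to 1279 on low-ratio milk. Mdh2, which carries out the same reaction inside mitochondria, had counts of 2045, 2351 and 2047 on high-ratio and 2664, 2426, 2650.4 and 2879.9 on low-ratio milk in preadipocytes. Its low-ratio libraries were all higher than its high-ratio ones, with a log2 fold change of 0.31 ± 0.10 that did not pass the test (limma, adjusted p = 0.129). Fh1, fumarate hydratase, whose groups did not overlap either, had counts of 869 to 1229 on high-ratio and 681 to 859 on low-ratio milk (-0.48 ± 0.15, adjusted p = 0.115).

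Sucla2 (ENSMUSG00000022110, chr14:73525319-73596142, plus strand) had counts of 2370.4, 1557 and 2081 in the preadipocyte libraries of the high ratio and 1238, 1035, 838 and 944 in those of the low ratio. Every high-ratio library was above every low-ratio one, and the high-ratio libraries also differed more among themselves. The means were 2003 ± 412 (SD, n = 3) and 1014 ± 169.8 (SD, n = 4), a log2 fold change of -0.97 ± 0.18 (limma, adjusted p = 0.0365). Suclg2, the GTP-forming beta subunit that can take the place of Sucla2 in the ligase, had counts of 618 to 959.8 on high-ratio and 835 to 988 on low-ratio milk, and these groups overlapped. The ratio of Sucla2 to Suclg2 was 3.80, 2.52 and 2.17 in the high-ratio preadipocyte libraries and 1.44, 1.21, 0.848 and 1.13 in the low-ratio ones. The groups of ratios did not overlap, with a log2 difference, low minus high, of -1.27 (two-sided exact permutation test, p = 0.0286, the smallest this design allows; adjusted p = 0.114 over 8 ratio comparisons). In progenitors the ratio ran from 0.866 to 1.88 on high-ratio and from 0.780 to 1.11 on low-ratio milk, and the groups overlapped (difference -0.29, exact permutation p = 0.4).

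Idh1 (ENSMUSG00000025950, chr1:65158616-65186500, minus strand) had counts of 5171, 5416 and 4748 in the preadipocyte libraries of the high ratio and 3674, 3939.9, 3787 and 3967 in those of the low ratio. The groups were apart, and the low-ratio libraries lay close together. The means were 5112 ± 338 (SD, n = 3) and 3842 ± 137 (SD, n = 4), with a log2 fold change of -0.41 ± 0.09 (limma, adjusted p = 0.0465). In progenitors its counts ran from 3555 to 3894 on high-ratio and from 3324 to 4231 on low-ratio milk, with the high-ratio range inside the low-ratio one. The mitochondrial Idh2 stood the other way in preadipocytes, with counts of 2316, 2479 and 2463 on high-ratio and 3343, 2671, 3256 and 3218 on low-ratio milk. Its groups did not overlap, with the lowest low-ratio value in library 114, and its log2 fold change of 0.36 ± 0.10 did not pass the test (limma, adjusted p = 0.0955). In progenitors Idh2 counts overlapped, from 2903 to 3572 on high-ratio and from 2202 to 3788 on low-ratio milk (-0.19 ± 0.15, adjusted p = 0.789).

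Mpc1 (ENSMUSG00000023861, chr17:8282904-8297661, plus strand) had counts of 1232, 868 and 826 in the preadipocyte libraries of the high ratio and 598, 425, 344 and 488 in those of the low ratio. The groups did not overlap. The means were 975 ± 223 (SD, n = 3) and 463 ± 107.1 (SD, n = 4), with a log2 fold change of -1.08 ± 0.22 (limma, adjusted p = 0.0441), the largest change in size among the 4 genes that fell. The progenitor values lay the other way round, at 295, 353, 469.8 and 460.4 on high-ratio and 527, 548, 527 and 445 on low-ratio milk, with the low-ratio library 133 inside the high-ratio range. Their log2 fold change was 0.40 ± 0.18 and did not pass the test (limma, adjusted p = 0.723).

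The level of Mpc1 is uncertain, because the processed pseudogene Mpc1-ps is identical to it over 261 bases and has counts of its own in both tables. Mpc1-ps counts were 527, 452 and 252 on high-ratio and 268, 240.2, 196 and 231 on low-ratio milk in preadipocytes, so they overlapped through library 1019. With the counts of both summed, the log2 fold change was -0.98 ± 0.21 in preadipocytes (limma, adjusted p = 0.0473) and 0.26 ± 0.14 in progenitors (adjusted p = 0.748). Mpc2, the partner subunit of the carrier, had counts of 833 to 990.1 on high-ratio and 747 to 970.6 on low-ratio milk in preadipocytes, and these groups overlapped. The ratio of Mpc1 to Mpc2 was 1.48, 0.877 and 0.944 on high-ratio and 0.616, 0.507, 0.460 and 0.583 on low-ratio milk there. These groups were apart too (log2 difference -0.99, exact permutation p = 0.0286, adjusted p = 0.114). In progenitors the ratio ran from 0.359 to 0.625 on high-ratio and from 0.597 to 0.920 on low-ratio milk (log2 difference 0.54, exact permutation p = 0.0857, adjusted p = 0.171).

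**Figure D2:**
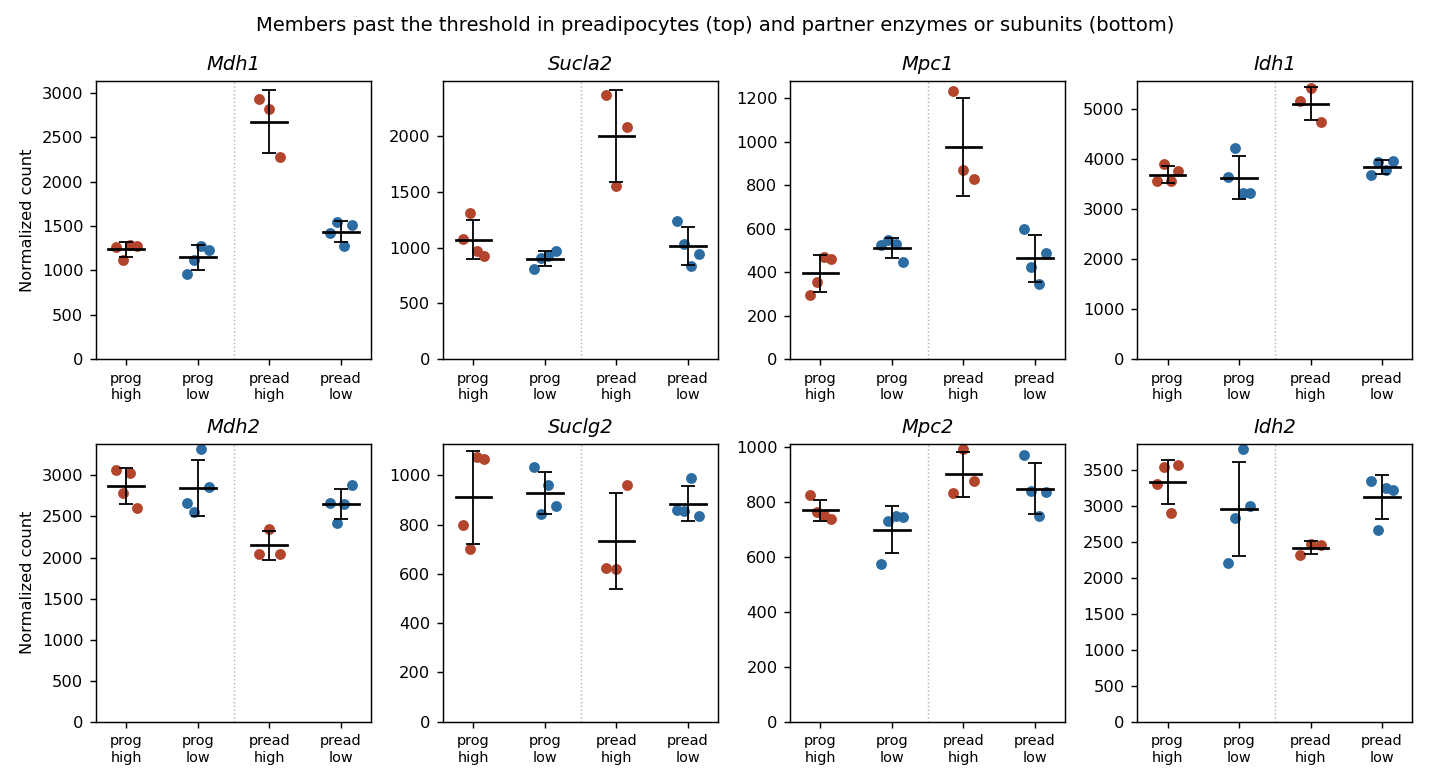
Normalized counts per library of the 4 genes that fell in preadipocytes (top row) and of a partner enzyme or subunit of each (bottom row), with progenitors and preadipocytes on high-ratio and low-ratio milk along the x axis. Points are libraries, bars the mean ± SD of a group; the top row shows preadipocyte points on high-ratio milk above all those on low-ratio milk, as for Mdh1 with 2274 to 2937 against 1273 to 1541.

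The 4 calls rest on the full set of preadipocyte libraries: leaving out any 1 of high-ratio 1015 and 1017 or low-ratio 108, 114, 119 and 133 left 0 members past the threshold, and leaving out high-ratio 1019 gave 5. With all libraries, limma without its trend and robust options left 0 members past the threshold too, with adjusted p from 0.0911 (Mdh1) to 0.127 (Idh1), and the fold changes kept their sign in all of these fits.

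Among the genes of the citrate and isocitrate steps, 1 of 7 fell (Idh1) and 6 did not pass. Cs, citrate synthase, had preadipocyte counts of 2034, 1945 and 2202 on high-ratio and 2599.9, 2401, 2553 and 2816 on low-ratio milk. All low-ratio libraries were above the high-ratio ones, at a log2 fold change of 0.33 ± 0.10 (limma, adjusted p = 0.0988). Idh3a, the catalytic subunit of the NAD-linked isocitrate dehydrogenase, had counts of 404, 390.3 and 439 on high-ratio and 546, 513, 511 and 534 on low-ratio milk. Its groups did not overlap either (0.36 ± 0.13, limma, adjusted p = 0.1502). The companion subunits Idh3b and Idh3g overlapped between milks, as did Aco1, cytosolic aconitase, which doubles as an iron regulatory protein. The ratio of Idh3a to Idh2 overlapped between milks, at 0.157 to 0.178 on high-ratio and 0.157 to 0.192 on low-ratio milk in preadipocytes (log2 difference -0.01, exact permutation p = 0.943).

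Of the 6 genes between oxoglutarate and succinate, Sucla2 fell and 5 did not pass. Dld, the dihydrolipoamide dehydrogenase shared by the oxoglutarate and pyruvate dehydrogenase complexes, had preadipocyte counts of 2549.6, 2111 and 1631 on high-ratio and 1588, 1394, 901 and 1592 on low-ratio milk. The groups were just apart (-0.63 ± 0.23, limma, adjusted p = 0.162). Ogdh and Dlst, the other components of the oxoglutarate complex, overlapped between milks at log2 fold changes of 0.21 ± 0.10 and 0.28 ± 0.13. Suclg1, the alpha subunit of the ligase, overlapped at 0.04 ± 0.12.

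None of the 4 genes of the pyruvate dehydrogenase complex passed in preadipocytes (limma), and their log2 fold changes ran from -0.40 to 0.37. Of the 4, 1 had an unadjusted p under 0.05, against 21.7% of all genes in either direction. Pdhb, the beta subunit of its first enzyme, had counts of 1225, 1573 and 1123 on high-ratio and 998.5, 998.6, 1106 and 1002 on low-ratio milk. Its groups were apart by a narrow gap between high-ratio 1019 and low-ratio 119 (-0.33 ± 0.14, limma, adjusted p = 0.1996). Dlat, the acetyltransferase core, had counts of 872, 882 and 561 on high-ratio and 1102, 882, 917 and 1027 on low-ratio milk, which overlapped. Pdha1, the alpha subunit, overlapped at 0.08 ± 0.09 and Pdhx, the component that anchors Dld in the complex, overlapped at -0.40 ± 0.25.

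Of the regulators of the complex, the 3 kinases and 2 phosphatases followed here gave no call in either population (limma). Among them 1 had an unadjusted p under 0.05 in preadipocytes and 0 in progenitors, against 21.7% and 6.88% of all genes in either direction. They leave out the kinase Pdk4 and the phosphatase regulator Pdpr, which were tested with other genes of the pathway. In preadipocytes Pdk4 and Pdpr had log2 fold changes of 0.66 ± 0.35 and 0.36 ± 0.14 (limma, adjusted p = 0.303 and 0.183). In progenitors these were -0.35 ± 0.23 and -0.24 ± 0.13, and none of these passed. Pdk2, one of the kinases, had preadipocyte counts of 581, 536 and 677 on high-ratio and 739, 789.6, 768 and 903 on low-ratio milk, with all low-ratio libraries higher (0.42 ± 0.14, limma, adjusted p = 0.123). Pdk1, Pdk3, Pdp1 and Pdp2 overlapped between milks, with log2 fold changes from -0.10 to 0.10. The summed counts of Pdk1, Pdk2 and Pdk3 over those of Pdp1 and Pdp2 were 2.25, 2.10 and 2.33 on high-ratio and 2.82, 2.33, 2.72 and 2.92 on low-ratio milk in preadipocytes. The log2 difference of this ratio, low minus high, was 0.27 and did not pass (exact permutation p = 0.0571, adjusted p = 0.152). In progenitors this ratio ran from 2.75 to 3.64 on high-ratio and from 2.87 to 3.99 on low-ratio milk. The difference there was 0.20 (exact permutation p = 0.257, adjusted p = 0.411).

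Of the 5 genes of pyruvate and malate entry, Mpc1 fell in preadipocytes and 4 did not pass. Pcx varied more between libraries than any other of the 30 genes. Its preadipocyte counts were 213, 67.7 and 435 on high-ratio and 64.2, 50.6, 451 and 133 on low-ratio milk, and its progenitor counts were 320.1, 156, 53.1 and 59.2 on high-ratio and 455, 201, 99.8 and 462 on low-ratio milk. High and low values occurred on both milks in both populations, and the highest library exceeded the lowest 8.69-fold in progenitors and 8.93-fold in preadipocytes. The log2 fold changes of Pcx were 1.18 ± 0.65 in progenitors (limma, adjusted p = 0.748) and -0.64 ± 0.82 in preadipocytes (adjusted p = 0.688). Me2, the mitochondrial NAD-linked malic enzyme, overlapped at 0.39 ± 0.19 in preadipocytes, and Me3 overlapped at 0.04 ± 0.49.

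Counted over all 30 genes in preadipocytes, 12 had groups that did not overlap, 5 with low-ratio libraries above and 7 with low-ratio libraries below. The shares over all genes tested were 21.1%, 10.1% and 11%. An unadjusted limma p under 0.05 was reached by 5 genes as higher and 7 as lower, against 10.6% and 11.2% of all genes and 21.7% in either direction. The fold change was positive for 17 of the 30 and for 54.1% of all genes. The median log2 fold change of the 30 was 0.04 and that of all genes 0.04, with members on both sides of 0. In the authors' deposited table, 4 of the 30 passed an adjusted p of 0.05 as higher in preadipocytes (Cs, Idh2, Idh3a and Pdk2) and 5 as lower (Mdh1, Sucla2, Mpc1, Idh1 and Fh1), against 11.9% of its genes in all, 4.46% higher and 7.39% lower.

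**Figure D3:**
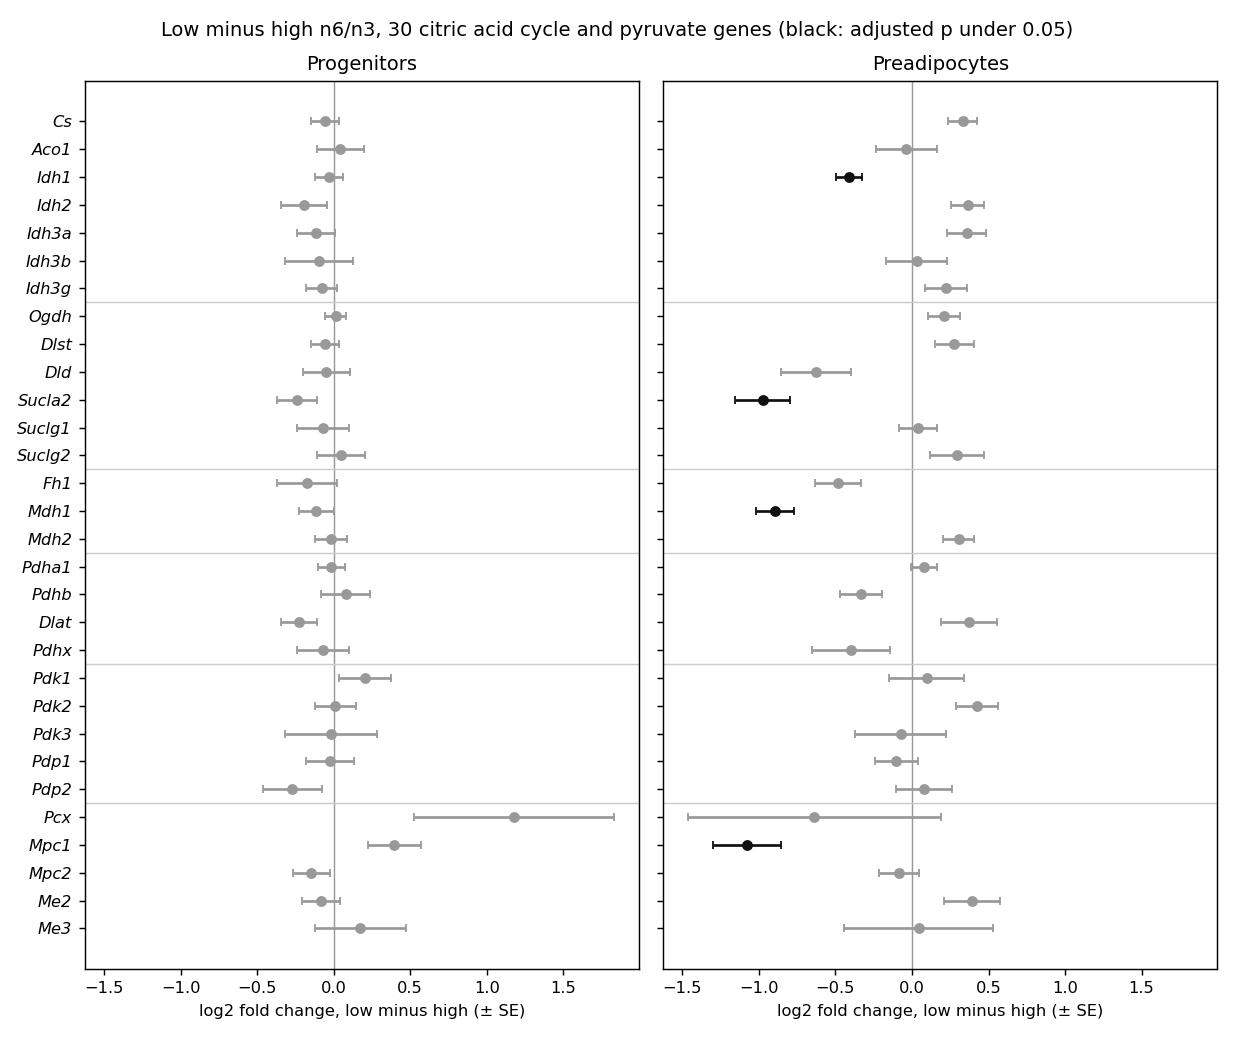
Log2 fold change, low minus high n6/n3 milk, with its limma SE for the 30 genes in order of their roles, progenitors on the left and preadipocytes on the right; black marks an adjusted p under 0.05. Progenitor values run from -0.27 (Pdp2) to 1.18 (Pcx), with Mpc1 next to Pcx at 0.40, and in preadipocytes the black points are Idh1 at -0.41, Sucla2 at -0.97, Mdh1 at -0.89 and Mpc1 at -1.08.

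In progenitors an unadjusted p under 0.05 was reached by Mpc1 alone, as higher, against 6.88% of all genes in either direction, 3.77% higher and 3.11% lower. None of the 30 had groups that did not overlap, against 4.04% of all genes. Fold changes were positive for 9 of the 30 and for 49.5% of all genes, with medians of -0.05 and -0.00. After Mpc1, the smallest p-values belonged to Dlat, Sucla2, Pcx, Pdp2 and Idh2. Dlat counts were 1008, 973, 1147 and 1028 on high-ratio and 967, 778, 824 and 990.8 on low-ratio milk, overlapping through libraries 1017 and 133 (-0.23 ± 0.12, limma, adjusted p = 0.748). Sucla2 counts were 1081, 1315, 971 and 923 on high-ratio and 807, 907, 923 and 966 on low-ratio milk (-0.24 ± 0.13, limma, adjusted p = 0.748). Pdp2 counts were 232, 243, 195 and 211 on high-ratio and 157, 178, 161 and 243 on low-ratio milk, where low-ratio 133 stood among the high-ratio values (-0.27 ± 0.19, limma, adjusted p = 0.769). In the authors' deposited table none of the 30 passed in progenitors, against 0.581% of its genes.

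The difference in milk effect between the populations was tested as an interaction in 1 fit of all 15 libraries. It passed for Mdh1 and Mpc1. With the library number as a replicate block neither gene passed, and the labels do not say whether same-numbered libraries share pups. The fold change of Mdh1 was lower in preadipocytes than in progenitors by a log2 difference of -0.78 ± 0.17 (limma, adjusted p = 0.0280), and that of Mpc1 by -1.47 ± 0.29 (limma, adjusted p = 0.0213). With Mpc1-ps added to Mpc1 the difference was -1.24 ± 0.25 (adjusted p = 0.0236). These 2 of 30 stand beside 2.28% of the 15354 genes tested, 0.625% higher and 1.65% lower. Sucla2 (-0.73 ± 0.22, adjusted p = 0.101) and Idh1 (-0.38 ± 0.12, adjusted p = 0.115) did not pass, so their fall in preadipocytes is not shown to differ from progenitors. Cs (0.39 ± 0.13, limma, adjusted p = 0.121) and Idh3a (0.47 ± 0.16, adjusted p = 0.128) had the next smallest p-values, with higher fold changes in preadipocytes. An unadjusted p under 0.05 was reached by 8 of the 30 as higher and 4 as lower, against 8.99% and 8.62% of all genes and 17.6% in either direction, and the interaction was positive for 16 of the 30 and for 54.1% of all genes. Without preadipocyte high-ratio library 1015 neither gene passed, and without any 1 of progenitor high-ratio 1017 and low-ratio 114 or preadipocyte high-ratio 1017 and low-ratio 119 and 133 only Mpc1 did. In limma without trend and robust options only Mpc1 passed, and with the trend on GC content and length removed neither did (-0.73 for Mdh1, adjusted p = 0.0799; -1.16 for Mpc1, adjusted p = 0.0620).

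The genes that fell have transcripts of low GC content, and GC content moved with the milk groups in preadipocytes. The median GC content was 44.6% for the 4 genes that fell, 47.5% for the 30 genes and 50.2% for all genes tested in preadipocytes. In each library the genes of the highest of 5 GC bins were set against those of the lowest, as the median deviation from the mean of all libraries on the log2 scale. This difference was -0.26, -0.24 and -0.16 in the preadipocyte libraries on high-ratio milk and 0.14 to 0.18 in those on low-ratio milk, while in progenitors it lay between -0.12 and 0.09 with both milks mixed. Across genes within preadipocytes, the fold change and the GC content had a Spearman correlation of 0.41 over the 30 genes and 0.26 over all genes, where all points share the same libraries; in progenitors these were -0.02 and 0.00. With the trend on GC content and length removed from each library, the log2 fold changes were -0.84 for Mdh1, -0.80 for Sucla2, -0.69 for Mpc1 and -0.24 for Idh1 (limma, adjusted p = 0.0668, 0.0852, 0.112 and 0.165), so none of the 4 passed. Over all genes that correction changed 85 higher and 373 lower calls to 6 and 3.

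**Figure D4:**
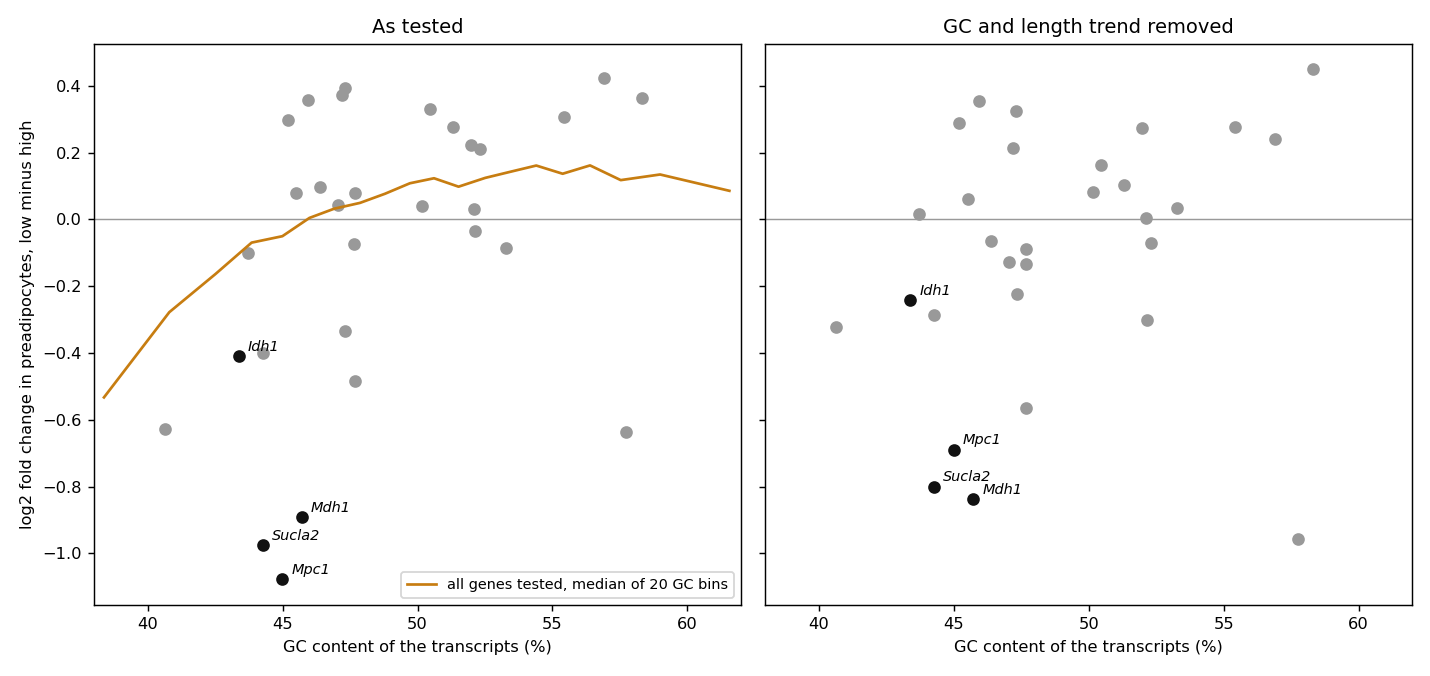
Log2 fold change in preadipocytes, low minus high n6/n3 milk, against the median GC content of the transcripts (%) for the 30 genes, as tested on the left and with the GC and length trend removed on the right; black points are the 4 genes that fell, and the line is the median of all genes in 20 GC bins. The line rises from negative values at low GC content, and the 4 black points stay below 0 on both sides, at -0.84 for Mdh1 and -0.24 for Idh1 after the correction.

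Of other properties of the preadipocyte libraries, the share of mitochondrially encoded transcripts and the endothelial marker sum also stood apart between the milks. What part any of the properties given here had in the results was not tested. Mitochondrially encoded transcripts made up 4.54% to 6.35% of the normalized counts on high-ratio and 2.50% to 3.03% on low-ratio milk. Endothelial markers summed to 6319 to 8064 on high-ratio and 8361 to 12029 on low-ratio milk; all 4 were detected in every library and 1 of the 4, Tek, rose (0.61 ± 0.13, limma, adjusted p = 0.0469). Tek made up most of that sum, with means of 5309 and 8193, and the other 3 did not pass: Pecam1 had means of 716 and 640.5, Kdr 321 and 277, and Cdh5 957 and 1064. The Tek call was not followed through the alternative fits. Red cell markers summed to 1154 to 4464 on high-ratio and 698 to 1321 on low-ratio milk, which overlapped. Of these markers, 3 of the 4 were tested and none passed (limma), with a median log2 fold change of -0.996. Among the 3, 2 had an unadjusted p under 0.05 as lower, against 11.2% of all genes. The sums of the other marker lists, among them adipocytes, blood cells and mural cells, overlapped between the milks in preadipocytes.

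The promoters of the 4 genes that fell and of the mitochondrial enzymes Mdh2 and Idh2 are shown to compare their sequence, as the 250 bases before the outermost RefSeq start of each gene on GRCm38.p6, 5' to 3' on the strand of the gene. Capitals mark the motif letters searched on both strands: GCGCATG (NRF1), CCGGAAG (GABPA), AAGGTCA (a nuclear receptor element), GGGCGG (SP1) and CCAAT (NF-Y). The Mdh1 window is chr11:21571935-21572184 (minus), Sucla2 chr14:73552536-73552785 (plus), Mpc1 chr17:8283537-8283786 (plus), Idh1 chr1:65186480-65186729 (minus), Mdh2 chr5:135778399-135778648 (plus) and Idh2 chr7:80115351-80115600 (minus).
Mdh1: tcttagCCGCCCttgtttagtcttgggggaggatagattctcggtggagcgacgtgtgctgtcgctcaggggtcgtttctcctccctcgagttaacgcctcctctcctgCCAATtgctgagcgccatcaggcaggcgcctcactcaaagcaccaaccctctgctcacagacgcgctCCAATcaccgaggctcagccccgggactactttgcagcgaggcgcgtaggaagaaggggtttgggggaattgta
Sucla2: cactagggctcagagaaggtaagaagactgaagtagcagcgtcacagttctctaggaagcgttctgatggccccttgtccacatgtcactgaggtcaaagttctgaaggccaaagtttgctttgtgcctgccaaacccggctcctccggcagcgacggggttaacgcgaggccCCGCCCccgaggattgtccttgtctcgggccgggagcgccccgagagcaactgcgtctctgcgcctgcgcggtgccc
Mpc1: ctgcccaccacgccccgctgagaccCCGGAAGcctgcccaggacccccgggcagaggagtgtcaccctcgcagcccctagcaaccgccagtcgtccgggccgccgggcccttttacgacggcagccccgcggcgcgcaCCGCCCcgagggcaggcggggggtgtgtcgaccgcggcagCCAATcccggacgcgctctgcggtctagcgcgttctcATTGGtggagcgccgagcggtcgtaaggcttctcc
Idh1: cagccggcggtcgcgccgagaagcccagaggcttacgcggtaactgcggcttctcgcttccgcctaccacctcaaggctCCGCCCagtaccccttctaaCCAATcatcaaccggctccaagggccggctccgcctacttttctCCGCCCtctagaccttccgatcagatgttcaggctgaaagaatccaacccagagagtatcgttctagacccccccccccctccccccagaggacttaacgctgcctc
Mdh2: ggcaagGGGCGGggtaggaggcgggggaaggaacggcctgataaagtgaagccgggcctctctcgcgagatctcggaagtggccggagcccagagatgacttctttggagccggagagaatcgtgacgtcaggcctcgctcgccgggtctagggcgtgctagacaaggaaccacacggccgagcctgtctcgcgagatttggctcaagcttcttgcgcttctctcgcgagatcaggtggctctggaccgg
Idh2: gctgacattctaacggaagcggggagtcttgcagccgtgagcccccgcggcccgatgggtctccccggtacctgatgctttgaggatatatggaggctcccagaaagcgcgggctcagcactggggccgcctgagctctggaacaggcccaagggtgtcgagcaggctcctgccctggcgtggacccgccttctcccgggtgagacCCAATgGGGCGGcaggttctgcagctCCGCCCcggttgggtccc

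All 6 windows hold GGGCGG on one strand or the other, those of Idh1 and Idh2 at 2 places. CCAAT is present in the windows of Mdh1, Mpc1, Idh1 and Idh2 and not in those of Sucla2 and Mdh2. The Mpc1 window alone of the 6 has the GABPA letters, and none of the 6 has GCGCATG or AAGGTCA, so the genes that fell have no searched motif in common apart from GGGCGG, which Mdh2 and Idh2 carry too. RefSeq promoters were matched for 27 of the 30 genes, at 37 starts. Of these, 62.2% held GGGCGG against 32.7% of all 32851 promoters, and 51.4% held CCAAT against 33.8%. GCGCATG was in 5.4% against 3.2%, the GABPA letters in 5.4% against 6.9%, and AAGGTCA in 0 of 37 against 4.1%. A match of letters is a description of these windows and no evidence of binding.

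Of 23 other genes of the pathway, among them the succinate dehydrogenase subunits and the mitochondrial carriers of citrate and malate, 22 passed the filter and none passed the test in progenitors or in preadipocytes. An unadjusted limma p under 0.05 was reached by 1 of the 22 as lower in progenitors, and by 4 as higher and 1 as lower in preadipocytes, against 3.11%, 10.6% and 11.2% of all genes. Me1, the cytosolic malic enzyme, had a log2 fold change of 0.84 ± 0.28 in preadipocytes (limma, adjusted p = 0.134). The fold changes of 17 of the 22 were positive in preadipocytes, against 54.1% of all genes, with a median of 0.23 beside 0.04. In the interaction 1 of the 22 passed, as higher in preadipocytes, against 0.625% of all genes in that direction: Glud1, glutamate dehydrogenase, which feeds oxoglutarate into the cycle, at 0.46 ± 0.11 (limma, adjusted p = 0.0370). Its fold changes were -0.11 ± 0.07 in progenitors and 0.35 ± 0.10 in preadipocytes, neither of which passed. The Glud1 call was not followed through the alternative fits. Over all genes, interaction calls fell from 350 to 49 with the GC and length trend removed. With the library number as a replicate block they fell to 43. For Pdk4 and Pdpr the interaction was 1.01 ± 0.43 and 0.60 ± 0.18 (limma, adjusted p = 0.235 and 0.0893), and neither passed.

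Some members share sequence with other genes, and their counts are uncertain to that extent. Processed pseudogenes close to Pdhb (97.0% identity over 1079 bases) and to Suclg2 (98.9% over 1302 bases) exist in the annotation. Exons of Pdha1 and Me3 overlap those of genes on the opposite strand by 425 and 391 bases, where the partners had mean counts of at most 20.97 and 4.01, and exons of Mpc1 and Idh3b overlap opposite-strand genes by 106 and 5 bases. The strand setting of the counting is not given in the sources used here.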

How the data were processed

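RNA-seq tables of 15 libraries in 4 groups were used. Per the labels' protocols, a NuGEN kit was used for the libraries. The submitters' processing notes name, with no order, mm10, GRCm38, DESeq2 1.28.1 and Salmon 0.14.2. The authors deposited log2-like variance stabilized values per library, 1 table per population, each with a log2 fold change and p-values of their own comparison. The transformation was inverted from its floor (7.12 in preadipocytes, 7.70 in progenitors); recomputed fold changes differed from the authors' deposited log2 values by a median of 0.00304 and 0.000751 over genes whose mean reached 100. Depth was estimated from the step of low values. Read counts were not used here, so the test for normalized values was chosen.

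Milks were compared within a table with limma 3.58.1 (R 4.3.3; trend and robust) on log2(normalized count + 1), keeping genes whose mean reached 10, with Benjamini-Hochberg adjustment over all genes at 0.05. Fold changes are low minus high; the added 1 understates those of genes with few reads. The interaction used 15 libraries with a mean per group. Ratios of members were compared by exact permutation tests. Symbols, coordinates, GC content and lengths (medians over transcripts) came from GENCODE on GRCm38, promoters from RefSeq, and copies were searched with BLAST 2.17.0 at 95% identity over 200 bases. The GC and length trend was fitted per library with mgcv 1.9.3. A longer form of the NRF1 motif was searched first and replaced by its core letters. Of the steps, only the limma fit within a table was tested on simulated counts. The members, gene lists and tests were chosen with earlier results of these data known. Values in every library of at least 1 population were given for members past the threshold and for the 6 with the smallest p in each comparison. Added were partners of these, Fh1, Dld, Pdhb and Pdk2, chosen after their values were seen, some of them as ranges only. Alternatives covered pseudocount, filter, scale, normalization, limma options, GC and length, the fit over all libraries, each library left out and, after seeing the data, Mpc1 with Mpc1-ps.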

Additional observations from a re-analysis of the deposited data

Results flagged for a closer look

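Among 90 sets of 4 libraries (a member in a group), 7 had 1 library set apart from the other 3 by a gap above the 95% limit of Dixon's ratio for 4 samples; chance gives about 1 in 20. Progenitor high-ratio library 1017 was low for Mdh1 (1117 against 1267 to 1291). Progenitor low-ratio library 108 was low for Pdk1 (437 against 597 to 629) and for Mpc2 (572 against 728 to 748). Preadipocyte low-ratio library 114 was low for Idh2 (2671 against 3218 to 3343). Preadipocyte low-ratio library 119 was high for Suclg2 (988 against 835 to 859) and for Pdhb (1106 against 999 to 1002). Preadipocyte low-ratio library 133 was high for Me2 (811 against 651 to 668).

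The milk effect differed between preadipocytes and progenitors for 2 members, by -0.78 on the log2 scale for Mdh1 and by -1.47 for Mpc1, each by the interaction test in limma with all libraries. Neither passed with the GC and length trend removed, with the library number as a replicate block, or without preadipocyte high-ratio library 1015.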

How the results depend on the processing

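Of 899 alternative fold changes of named members, 848 kept their direction and their side of the threshold, 45 kept the direction and no longer passed, 2 came to pass (Cs in preadipocytes with all 15 libraries in 1 fit, adjusted p = 0.0415, and Fh1 without high-ratio library 1019, adjusted p = 0.0494, both limma) and 4 changed sign without passing in either form. Those 4 were Ogdh with the GC and length trend removed (-0.0714 in preadipocytes and -0.0637 in the interaction) and Idh1 in progenitors with low-ratio 119 or 133 left out (range over 8 fits -0.106 to 0.0103). The cause of these changes was not tested.

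In preadipocytes the members past the threshold numbered 4, and 0 in limma without trend and robust options and 0 with the GC and length trend removed; with 1 library left out they ranged from 0 to 5. Over all genes the calls were 458, against 6, 9 and a leave-one-out range of 2 to 1159 in the same order, and 1264 with all 15 libraries in 1 fit. In the interaction 2 members passed, 1 without trend and robust options, 0 with the GC and length trend removed, and 0 to 2 with 1 library left out. Over all genes the interaction calls were 350, against 153, 49 and a range of 70 to 849. In progenitors 0 genes passed with all libraries and 0 to 3 with 1 left out. The median of the members was -0.0303 in preadipocytes with the GC and length trend removed, and in the interaction it ranged from -0.00651 to 0.110 with 1 library left out.

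The ratio of Idh3a to Idh2 in preadipocytes, with a log2 difference of -0.01, was 0.0328 after quantile normalization and ranged from -0.0670 to 0.0299 with 1 library left out. Library numbers recur between the populations. The deviations of the 7 same-numbered pairs correlated between -0.06 and 0.09, with none over 0.1, and the numbers were not taken as pairs in the main fit. A weak correlation of deviations taken within such small groups cannot decide whether same-numbered libraries share pups, and the labels do not say. With the library number as a replicate block, 0 members and 43 genes passed the interaction test. The estimated depth of 13.96 M reads in preadipocyte high-ratio library 1015 limits the precision of members with low counts, such as Me3.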
